A study of Mus musculus and Macaca nemestrina with 20 samples.

Results

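Sensory (dorsal root) ganglia of pig-tailed monkeys (Macaca nemestrina) were sequenced after the skin received SADBE, which stands for squaric acid dibutyl ester, or vehicle. The comparison holds 6 of the 20 libraries of the series, 3 with SADBE and 3 with vehicle, and its members were taken by their sample titles. The series title concerns natriuretic peptide B in chronic itch, and the other libraries come from mice and were not used. SADBE is a contact sensitiser: painted on skin it provokes an allergic dermatitis in sensitised animals. The labels give the treatment only. They state no dose, time after treatment, animal number, sex, age, ganglion level or pooling, and they do not say whether a SADBE library and a vehicle library came from the same animal.

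A dorsal root ganglion holds the cell bodies of the sensory neurons that serve skin, muscle and viscera, wrapped by satellite glia and mixed with Schwann cells, fibroblasts, vessels and resident macrophages. Itch is carried by small neurons, the pruriceptors. In mice, one class of them, often called NP3, makes natriuretic peptide B (NPPB) and somatostatin and bears the receptors for interleukin 31, cysteinyl leukotrienes and serotonin. NPPB released in the spinal cord acts through its receptor NPR1 on the next neurons of the itch pathway. The data are bulk RNA sequencing, so fewer cells of a type and less RNA per cell cannot be told apart. Levels are given as TPM, a transcript share scaled for length, and differences as log2 fold changes of SADBE over vehicle from counts.

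No gene passed the test over all 17988 genes tested, in either direction. NPPB stood higher in each of the 3 SADBE libraries than in any vehicle library, at 3.76 times the vehicle level in the fit. It rests on 7 to 35 estimated counts a library, and 5.04% of all genes tested separated the groups in the same direction. Among the genes with the lowest unadjusted p, TRIL, PTPN11 and RASL11B stood higher with SADBE, and CXCL11, ANGPTL7, THRSP, BCL2A1 and DGAT2 lower. Of the gene groups listed, the interferon-stimulated genes held the most members with a low unadjusted p, 13 lower and 1 higher of 37. Over all genes tested 1.62% were lower and 1.43% higher at that level (an unadjusted edgeR p under 0.05). Markers of neuron classes, including those of the NP3 class other than NPPB, overlapped between the groups.

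The widest split among the 6 libraries crossed the treatment. Totals ran from 13.7 M to 27.1 M estimated counts with vehicle and from 9.02 M to 22.4 M with SADBE. The first principal component of log2 CPM (counts scaled to library size) held 45.6% of the variance and set vehicle 1, vehicle 2 and SADBE 1 apart from vehicle 3, SADBE 2 and SADBE 3, so it crossed the treatment. The second, with 22.9%, set vehicle 1 and SADBE 1 at opposite ends. The third, with 15.6%, placed vehicle 2 and vehicle 3 (the latter at 72.3) on the other side of the SADBE libraries (-25.2, -61.0 and -37.1), with vehicle 1 at 1.0 between them. SADBE 2 and SADBE 3 were the most alike, with r = 0.945 over genes and a chi-square per gene of 20.8, while other pairs within a group had 213 to 401. The next closest pairs crossed the treatment, vehicle 3 with SADBE 2 (46.1) and with SADBE 3 (88.9). The chi-square is taken on counts and grows with library depth, so pairs of unlike depth are not strictly comparable by it. By correlation these pairs had r = 0.912 and r = 0.917, and vehicle 2 with SADBE 1 had r = 0.906. Sampling noise alone gives a chi-square per gene of about 1, so SADBE 2 and SADBE 3 were not copies of 1 library.

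**Figure D1:**
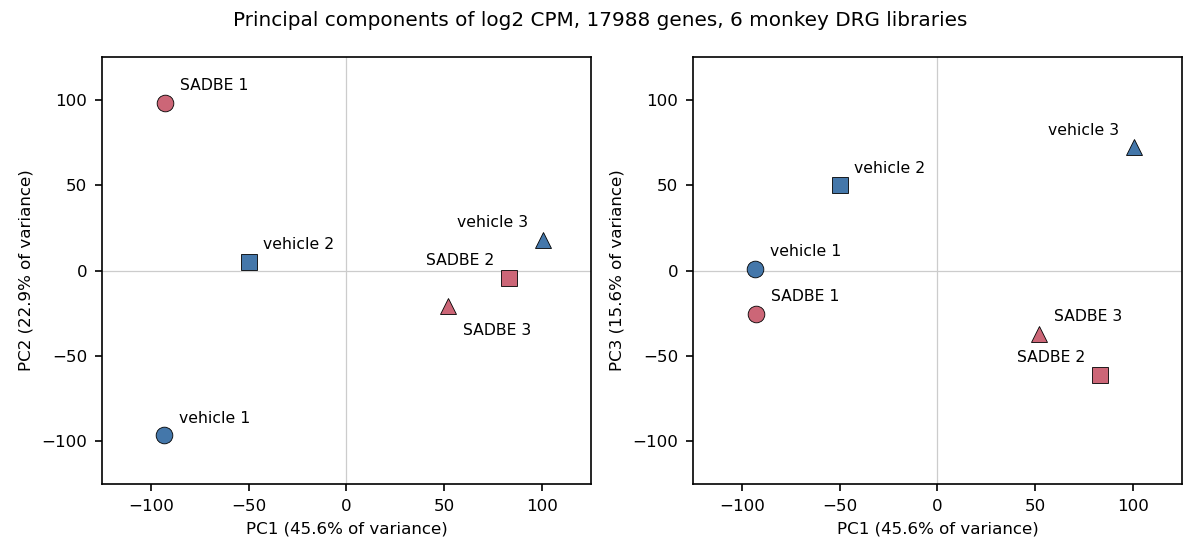
Principal components of log2 CPM over all tested genes, with PC1 (45.6% of variance) on the x axis and PC2 (left) or PC3 (right) on the y axis. Each point is a library, blue for vehicle and red for SADBE; PC1 splits both groups and PC3 separates vehicle 2 and vehicle 3 from the 3 SADBE libraries.

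Length and tissue makeup moved with these splits. The median of the shortest 10% of genes minus that of the longest 10%, each relative to the gene mean, was -0.21, -0.65 and 0.75 in vehicle 1 to 3 and -0.82, 0.45 and 0.46 in SADBE 1 to 3, on the log2 scale. The same gene sets had near-equal treatment medians of -0.05 and -0.07. Vehicle 1 held the highest level of all 7 erythroid genes and of 11 of 14 neutrophil and marrow genes. AHSP, the chaperone of alpha haemoglobin, stood at 359 TPM there and at 2.31 to 46.6 TPM in the other 5 libraries. SADBE 1 held the lowest summed level of chemokine, macrophage, adipocyte and perineurial genes. SADBE 3 held 5073 TPM of PTGDS, a prostaglandin D synthase abundant in meninges, against 116 to 1249 TPM elsewhere. The part of these differences in the treatment values was examined only by leaving out each library in turn, by removing the length trend and with 1 surrogate variable.

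The tissue label was checked against neuronal markers. SNAP25, a synaptic vesicle fusion protein, ran from 184 to 584 TPM with vehicle and from 277 to 432 TPM with SADBE. PRPH, the intermediate filament of peripheral neurons, ran from 67.6 to 332 and from 221 to 365 TPM. The summed level of 14 pan-neuronal genes was lowest in vehicle 1, at 3935 TPM against 7400 to 13300 TPM in the other libraries. None of the 14 reached an unadjusted p under 0.05, beside 3.06% of all genes tested. Their median log2 fold change was 0.06, beside -0.01 over all genes tested, and ran from -0.12 (without SADBE 1) to 0.36 (without vehicle 2).

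Across genes, edgeR's quasi-likelihood test called 0 genes higher and 0 lower at a Benjamini-Hochberg adjusted p under 0.05 (0.0% of the genes tested in each direction), with a lowest adjusted p of 0.999. At an unadjusted p under 0.05, 258 genes were higher with SADBE (1.43%) and 292 lower (1.62%). In 906 genes (5.04%) the lowest SADBE library lay above the highest vehicle library in TPM, and in 718 genes (3.99%) the highest SADBE library lay below the lowest vehicle library. The typical standard error of a log2 fold change was 0.63 (median over genes), so a change of 2-fold is within 2 standard errors for most genes. DESeq2, which tested 18303 genes, called 28 genes, 8 higher and 20 lower. Of these, 26 had an unadjusted p under 0.05 in edgeR. The others, LOC112429264 and LOC105472384, did not pass the edgeR filter and were not tested there. limma-voom called 0, limma on log2 TPM called 0, and limma-voom with a quality weight for each library called 3, which were TRIL and PTPN11 higher and LOC105498220 lower. The weights were 0.4455, 1.925 and 0.4465 for vehicle 1 to 3 and 0.2929, 2.673 and 3.335 for SADBE 1 to 3. In that weighted fit 22.4% of genes had an unadjusted p under 0.05, against 3.06% in edgeR.

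**Figure D2:**
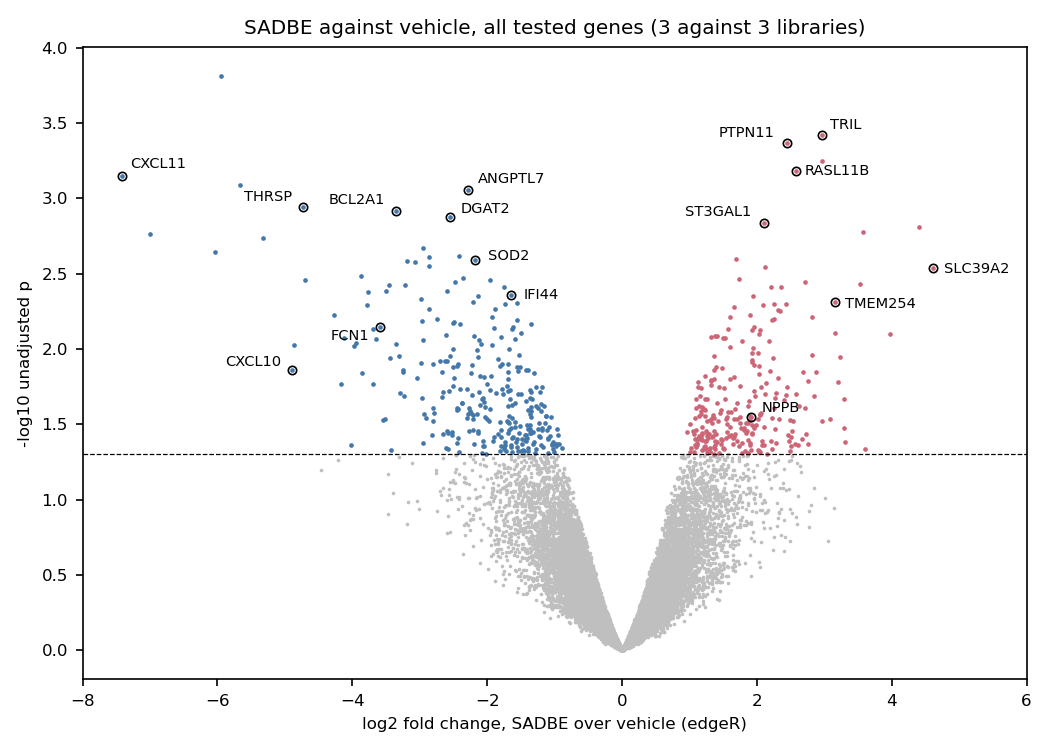
Each point is 1 of the 17988 tested genes, with the log2 fold change of SADBE over vehicle on the x axis and -log10 of the unadjusted edgeR p on the y axis. Red and blue points above the dashed line (an unadjusted edgeR p of 0.05) are the 258 genes higher and the 292 lower with SADBE; none passed after adjustment.

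NPPB, the peptide named in the series title, was present at low levels. It stood at 0.830, 0.940 and 1.38 TPM in vehicle 1 to 3 and at 3.99, 3.21 and 5.05 TPM in SADBE 1 to 3, which rests on 11, 8 and 7 estimated counts against 29, 11 and 35. All 3 SADBE libraries lay above all 3 vehicle libraries, as they did for 5.04% of all genes tested. The log2 fold change was 1.91 ± 0.73 (SE), with an unadjusted p of 0.0281 and an adjusted p of 0.999 in edgeR. An exact two-sided permutation test of log2(TPM + 1) gave p = 0.1, the smallest that 3 against 3 allows. Leaving out a library gave log2 fold changes from 1.69 to 2.24 with unadjusted p from 0.0315 to 0.12. On the log2(TPM + 1) scale, which compresses low values, the difference was 1.30.

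The other peptides and receptors of the natriuretic system overlapped between the groups. NPPC, the C-type peptide, stood at 12.3, 8.06 and 1.78 TPM with vehicle and 12.6, 5.68 and 4.96 TPM with SADBE. NPR1, the receptor of NPPB that makes cyclic GMP, stood at 7.45, 2.44 and 0.680 TPM with vehicle and 0.809, 2.24 and 3.60 TPM with SADBE. NPR2, the receptor of the C-type peptide, ran from 1.10 to 14.8 TPM with vehicle and from 3.47 to 14.4 TPM with SADBE. Libraries within each group thus spanned a wider range than the group means did. The clearance receptor NPR3 stood at 1.60, 0.201 and 0 TPM with vehicle and at 0, 1.04 and 1.33 TPM with SADBE. NPPA, CORIN and OSTN, the atrial peptide, its converting enzyme and a decoy ligand of the clearance receptor, fell under the filter on low counts, with at most 0.344 TPM in any library.

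Enzymes that mature or degrade the peptides, and the cyclic GMP steps after the receptor, also overlapped. FURIN, a protease that cuts the NPPB precursor, had a log2 fold change of -0.29 ± 0.68. MME, the peptidase neprilysin that degrades natriuretic peptides, stood at 4.26, 4.87 and 2.48 TPM with vehicle and at 2.84, 2.13 and 1.44 TPM with SADBE, a difference of -0.84 ± 0.46 with an unadjusted p of 0.1. DPP4, another peptidase, differed by -0.47 ± 1.38. The cyclic GMP-dependent kinases PRKG1 (0.17 ± 0.42) and PRKG2 (0.36 ± 0.70) and the cyclic GMP phosphodiesterase PDE5A (-0.40 ± 0.64) differed by less than 1 standard error. Of the 11 natriuretic genes tested, 1 (NPPB) had an unadjusted p under 0.05, beside 3.06% of all genes tested. The median log2 fold change of the 11 was -0.29, which turned to 0.33 without vehicle 1 and to 0.09 without SADBE 2.

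**Figure D3:**
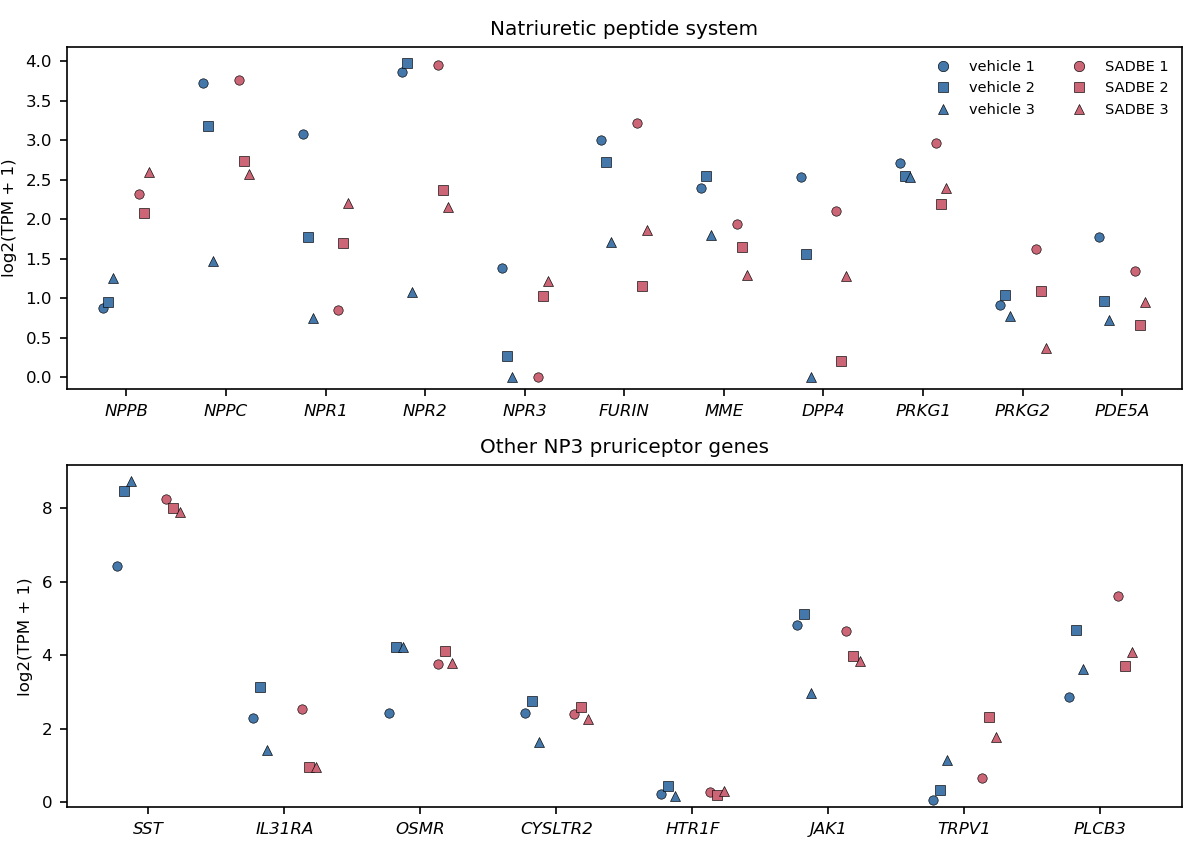
Level of each tested gene of the natriuretic peptide system (top) and of the other NP3 pruriceptor genes (bottom) as log2(TPM + 1) on the y axis. Each point is a library, blue for vehicle and red for SADBE with symbols by library number; only NPPB has groups that do not overlap.

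The tested genes that share the NP3 class with NPPB in mice overlapped between the groups. Of the 9 NP3 genes tested, NPPB included, 4 had log2 fold changes above 0 and 5 below. SST, the neuropeptide somatostatin, stood at 85.7, 355 and 424 TPM with vehicle and at 307, 256 and 237 TPM with SADBE. IL31RA, the interleukin 31 receptor, stood at 3.89, 7.70 and 1.65 TPM with vehicle and at 4.73, 0.920 and 0.942 TPM with SADBE. OSMR, its partner chain, stood at 4.37, 17.7 and 17.6 TPM with vehicle and at 12.6, 16.4 and 12.8 TPM with SADBE. For each of these 3 genes the SADBE values lay inside or across the vehicle range, with log2 fold changes of -0.18 ± 0.59, -0.98 ± 0.72 and 0.06 ± 0.57. The leukotriene receptor CYSLTR2 differed by -0.48 ± 0.61, the serotonin receptor HTR1F by -0.17 ± 0.71, at no more than 0.358 TPM in any library, and the kinase JAK1, which acts below the interleukin 31 receptor, by -0.29 ± 0.53.

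TRPV1, the heat and capsaicin channel through which many itch signals excite the neuron, stood at 0.0355, 0.245 and 1.19 TPM with vehicle and at 0.583, 4.01 and 2.39 TPM with SADBE. Vehicle 3 lay above SADBE 1, so the groups overlapped, and the log2 fold change was 2.17 ± 1.25 with an unadjusted p of 0.117. PLCB3, a phospholipase C of itch neurons, was highest in SADBE 1 at 47.4 TPM and ran from 6.22 to 24.7 TPM with vehicle. The median log2 fold change of the 9 NP3 genes tested was -0.17, and it turned to 0.20 without vehicle 2 and to 0.40 without vehicle 3. NTS, a further member, fell under the filter, with 3.58 TPM in vehicle 1, 0.2997 TPM in SADBE 2, 6.86 TPM in SADBE 3 and 0 in the other libraries.

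Other pruriceptor and nociceptor genes gave the same picture. MRGPRX1, a Mas-related itch receptor, stood at 69.3, 341 and 533 TPM with vehicle and at 148, 300 and 303 TPM with SADBE. MRGPRD, a marker of nonpeptidergic fibres, ran from 0.613 to 10.1 TPM with vehicle and from 2.50 to 7.01 TPM with SADBE. HRH1, the histamine H1 receptor, was even across all 6 libraries, at 6.17 to 9.98 TPM. CALCB, the beta form of calcitonin gene-related peptide, ran from 3048 to 5980 TPM with vehicle and from 2730 to 4400 TPM with SADBE. TAC1, the substance P precursor, ran from 533 to 940 and from 750 to 860 TPM. Of 14 further pruriceptor genes and 12 peptidergic nociceptor genes tested, 0 reached an unadjusted p under 0.05 in edgeR, and 0 had groups that did not overlap. Over all genes tested the shares were 3.06% and 9.03%. The lists' median log2 fold changes were 0.16 and 0.18. The 16 genes of touch and proprioceptive neurons had a median of -0.25 with 0 at an unadjusted p under 0.05.

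Receptors that neurons and immune cells use to sense inflamed skin are described next. Of 19 itch transmission and receptor genes tested, NPPB was the only member higher at an unadjusted p under 0.05, and IL7R, the receptor of interleukin 7 and thymic stromal lymphopoietin, the only one lower. In 2 of the 19 the SADBE libraries lay entirely above the vehicle libraries, and in 0 entirely below. IL7R stood at 1.73, 2.57 and 0.282 TPM with vehicle and at 0.436, 0.450 and 0.263 TPM with SADBE, and the groups overlapped. Among 37 cytokine receptor and JAK-STAT genes, 1 was higher (IL6R) and 1 lower (IL7R) at that level, with a median of -0.32. In 2 of the 37 SADBE lay entirely above vehicle and in 4 entirely below. Over all genes tested, 1.43% were higher and 1.62% lower at that p, while 5.04% lay entirely above and 3.99% entirely below. IL6R, the interleukin 6 receptor, stood at 25.6, 6.47 and 8.75 TPM with vehicle and at 35.9, 35.6 and 35.6 TPM with SADBE. All 3 SADBE libraries lay above vehicle 1, the highest of the vehicle libraries, with a log2 fold change of 1.36 ± 0.58 and an unadjusted p of 0.0447.

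Receptor chains of the type 2 cytokines were low or overlapped. IL4R stood at 6.37, 7.35 and 1.87 TPM with vehicle and at 5.98, 4.37 and 4.39 TPM with SADBE, a log2 fold change of -0.02 ± 0.52. IL13RA1 differed by -0.37 ± 0.56. IL13RA2, a decoy receptor of interleukin 13, stood at 1.89, 1.04 and 0.849 TPM with vehicle and at 0, 0.278 and 0.706 TPM with SADBE, without overlap and with an unadjusted p of 0.139. STAT3, the transcription factor below the interleukin 6 and interleukin 31 receptors, differed by 0.53 ± 0.49, and its feedback gene SOCS3 by -0.18 ± 0.63. Several of the cytokines were scarce in these ganglia. IL31 was listed at 0 in all 6 libraries, and IL4, IL13, TSLP and OSM did not exceed 0.382 TPM in any library. IL5, the growth factor of eosinophils, was higher and uneven, at 24.6, 4.84 and 6.46 TPM with vehicle and 0.375, 6.44 and 11.9 TPM with SADBE. These rest on 154, 51 and 15 estimated counts against 14, 5 and 29, which limits their precision. SADBE 1 had more counts than SADBE 2 but a lower TPM.

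Genes of nerve injury, regrowth and excitability were also tested. Of 21 injury and regrowth genes, 0 reached an unadjusted p under 0.05 in edgeR and 0 separated the groups. The shares over all genes tested were 3.06% and 9.03%. The list's median was 0.13. That median was -0.40 without SADBE 1 and 0.36 without vehicle 2. ATF3, a transcription factor induced in injured sensory neurons, stood at 1.88, 8.29 and 2.41 TPM with vehicle and at 7.63, 2.45 and 1.43 TPM with SADBE. GAP43, a growth cone protein, ran from 320 to 708 and from 351 to 820 TPM. Of 25 ion channel genes, 0 had an unadjusted p under 0.05, with a median of -0.13, which was 0.19 without vehicle 2 and -0.38 without SADBE 1. PENK, the precursor of the opioid enkephalins, stood at 0.890, 10.4 and 15.2 TPM with vehicle and at 0, 1.18 and 0.441 TPM with SADBE. SADBE 2 lay above vehicle 1, so the groups overlapped, and the unadjusted p was 0.0171.

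The genes with the lowest unadjusted p among those higher with SADBE are described first. In either direction these were picked from genes whose groups do not overlap, so their separation was set by the choice. TRIL, a leucine-rich repeat protein that assists Toll-like receptors, stood at 5.83, 2.18 and 2.35 TPM with vehicle and at 31.9, 24.8 and 25.8 TPM with SADBE, a log2 fold change of 2.96 ± 0.53. PTPN11, which encodes the phosphatase SHP2 of growth factor and cytokine receptor signalling, stood at 14.1, 11.03 and 6.93 TPM with vehicle and at 50.4, 53.3 and 69.2 TPM with SADBE, a log2 fold change of 2.45 ± 0.45. In both genes the lowest SADBE library was more than 3 times the highest vehicle library. DESeq2 called both (adjusted p = 0.00111 and 0.00192), and edgeR did not (adjusted p = 0.999 for each).

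RASL11B, a small GTPase of the Ras family, stood at 7.07, 13.5 and 5.27 TPM with vehicle and at 34.2, 68.9 and 41.0 TPM with SADBE. ST3GAL1, an enzyme that caps O-linked sugar chains with sialic acid, stood at 4.86, 5.87 and 4.77 TPM with vehicle and at 12.7, 23.5 and 25.5 TPM with SADBE. TMEM254, a membrane protein, stood at 297, 30.7 and 102 TPM with vehicle and at 1089, 1382 and 1538 TPM with SADBE. The 3 were called by DESeq2 (adjusted p = 0.00575, 0.0496 and 0.0317), with log2 fold changes of 2.58 ± 0.50, 2.10 ± 0.46 and 3.16 ± 0.84 in edgeR.

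MRPS10, a protein of the mitochondrial ribosome, stood at 57.2, 60.1 and 62.3 TPM with vehicle and at 148, 362 and 272 TPM with SADBE, and its vehicle libraries were closely alike. KCNMA1, the pore of the BK potassium channel, stood at 4.32, 7.85 and 3.93 TPM with vehicle and at 20.8, 10.8 and 20.03 TPM with SADBE, so that SADBE 2 lay nearest to vehicle. MAU2, a subunit of the cohesin loader, stood at 4.24, 6.86 and 3.20 TPM with vehicle and at 8.56, 25.6 and 27.6 TPM with SADBE, with SADBE 1 nearest to vehicle. Their log2 fold changes were 2.12 ± 0.52, 1.74 ± 0.44 and 2.20 ± 0.56, with unadjusted p from 0.00286 to 0.0039.

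UBTD2, TNNT1 and SLC39A2 also belonged to the genes of lowest p. UBTD2, a ubiquitin-like domain protein, stood at 72.2, 19.3 and 33.4 TPM with vehicle and at 276, 202 and 188 TPM with SADBE. TNNT1, the slow skeletal muscle troponin T, stood at 12.2, 21.7 and 25.1 TPM with vehicle and at 123, 57.8 and 58.2 TPM with SADBE. Of the 14 skeletal muscle genes tested it was the only one with an unadjusted p under 0.05, beside 3.06% of all genes tested. The list's median log2 fold change was 0.14. SLC39A2, a zinc importer, rests on few reads: 2, 0 and 0 estimated counts with vehicle and 18, 7 and 12 with SADBE, or at most 1.22 TPM. A predicted gene named by its identifier only, LOC112427949, stood at 2.18, 3.58 and 3.62 TPM with vehicle and at 20.9, 20.6 and 32.9 TPM with SADBE.

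**Figure D4:**
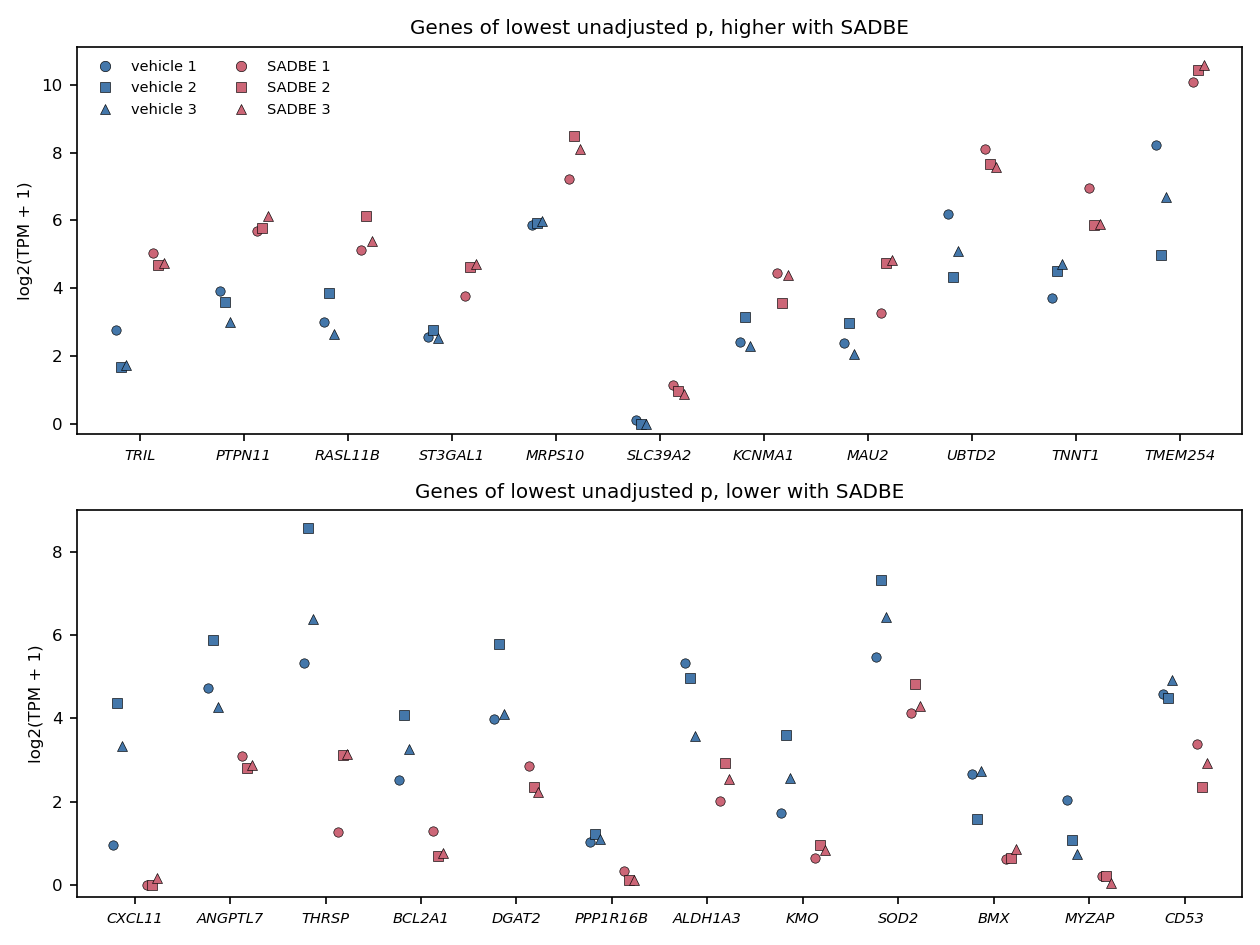
Genes with the lowest unadjusted p among those higher (11, top) and lower (12, bottom) with SADBE, chosen for groups that do not overlap; the y axis is log2(TPM + 1). Each point is a library, blue for vehicle and red for SADBE; MRPS10 shows near-equal vehicle libraries, while THRSP and SOD2 are spread widely by vehicle 2.

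Among the genes lower with SADBE with the lowest unadjusted p were THRSP and DGAT2. THRSP, a regulator of fatty acid synthesis, stood at 39.1, 378 and 83.4 TPM with vehicle and at 1.41, 7.73 and 7.91 TPM with SADBE. DGAT2, the enzyme of the last step of triglyceride synthesis, stood at 14.9, 54.4 and 16.1 TPM with vehicle and at 6.18, 4.11 and 3.72 TPM with SADBE. Vehicle 2 was the highest library in both. The log2 fold changes were -4.73 ± 0.99 and -2.55 ± 0.55, and DESeq2 called both (adjusted p = 0.000113 and 0.0195). ALDH1A3, an enzyme that makes retinoic acid, stood at 39.5, 30.5 and 10.9 TPM with vehicle and at 3.02, 6.63 and 4.85 TPM with SADBE.

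Adipocyte genes as a list were lower in 15 of 17 members, with a median log2 fold change of -0.90. Of the 17, 4 were lower at an unadjusted p under 0.05 and 5 were lower without overlap. Over all genes tested, 1.62% were lower at that p and 3.99% were lower without overlap. The 4 at that p were DGAT2, GPD1, SCD and LPL. GPD1, which makes the glycerol backbone of triglyceride, stood at 31.0, 34.3 and 18.6 TPM with vehicle and at 5.46, 13.7 and 9.30 TPM with SADBE. LPL, lipoprotein lipase, stood at 67.9, 128 and 69.2 TPM with vehicle and at 52.6, 41.7 and 29.7 TPM with SADBE. SCD, the desaturase that makes oleate, was high in vehicle 2 and vehicle 3 (33.4 and 19.6 TPM) and stood at 3.89 TPM in vehicle 1, below the SADBE range of 4.24 to 4.80 TPM.

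The defining adipocyte markers overlapped between the groups. FABP4, the fatty acid binding protein of fat cells, stood at 2110, 367 and 282 TPM with vehicle and at 45.6, 444 and 345 TPM with SADBE. PLIN1, the coat protein of the fat droplet, stood at 402, 204 and 578 TPM with vehicle and at 20.6, 487 and 438 TPM with SADBE. The hormone ADIPOQ stood at 48.1, 11.1 and 11.3 TPM with vehicle and at 1.86, 17.7 and 11.6 TPM with SADBE. The 3 markers were lowest in SADBE 1, and for each of them SADBE 2 and SADBE 3 lay inside the vehicle range. The list's summed level was 3596, 1796 and 2024 TPM with vehicle and 716, 1852 and 1655 TPM with SADBE. Without SADBE 1 the list's median was -0.58, with 4 members lower at an unadjusted p under 0.05. Without vehicle 1 the median was -0.50, and without vehicle 2 the count was 2. Over all genes, 640 of 18390 were lower at that p without SADBE 1 and 205 of 18379 without vehicle 2. The part of fat cell content in the result was not tested.

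The remaining genes with the lowest p among those lower, picked in the same way, are described next. ANGPTL7, a secreted angiopoietin-like protein, stood at 25.5, 58.1 and 18.4 TPM with vehicle and at 7.58, 6.04 and 6.35 TPM with SADBE. BMX, a kinase of endothelial and myeloid cells, stood at 5.37, 2.00 and 5.64 TPM with vehicle and at 0.548, 0.559 and 0.828 TPM with SADBE. PPP1R16B, a phosphatase subunit of endothelium, stood at 1.05, 1.35 and 1.16 TPM with vehicle and at 0.263, 0.0820 and 0.0820 TPM with SADBE, on 3 to 21 estimated counts a SADBE library. DESeq2 called these 3 genes, with log2 fold changes of -2.29 ± 0.46, -2.87 ± 0.70 and -2.96 ± 0.69 in edgeR. MYZAP, a cell junction protein, ran from 0.671 to 3.09 TPM with vehicle and from 0.0378 to 0.152 TPM with SADBE. CD53, a tetraspanin of leukocytes, stood at 23.1, 21.4 and 29.4 TPM with vehicle and at 9.45, 4.15 and 6.62 TPM with SADBE.

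BCL2A1, a survival factor induced by NF-kB in myeloid cells, stood at 4.71, 16.02 and 8.63 TPM with vehicle and at 1.47, 0.607 and 0.703 TPM with SADBE, a log2 fold change of -3.36 ± 0.71. SOD2, the mitochondrial superoxide dismutase that inflammatory cytokines induce, stood at 43.3, 161 and 86.2 TPM with vehicle and at 16.4, 27.2 and 18.6 TPM with SADBE, a log2 fold change of -2.18 ± 0.52. KMO, an enzyme of tryptophan breakdown, stood at 2.34, 11.1 and 4.91 TPM with vehicle and at 0.575, 0.947 and 0.787 TPM with SADBE. In these 3 genes vehicle 2 was the highest library and vehicle 1 the lowest of its group. The predicted gene LOC105498220 had the lowest unadjusted p of all genes (0.000154) and stood at 2.29, 4.62 and 4.84 TPM with vehicle and at 0.126, 0 and 0.0421 TPM with SADBE.

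Interferon-stimulated genes, which cells switch on when interferon receptors are activated, were lower in 30 of 37 members, with a median log2 fold change of -1.09 beside -0.01 over all genes. At an unadjusted p under 0.05, 13 were lower and 1 higher. In 10 the SADBE libraries lay entirely below the vehicle libraries, and in 1 entirely above. Over all genes tested, 1.62% were lower and 1.43% higher at that p, while 3.99% lay entirely below and 5.04% entirely above. The summed level of the 37 genes was 6864, 9304 and 7437 TPM with vehicle and 4848, 5153 and 5029 TPM with SADBE. IFI44 stood at 48.3, 107 and 47.9 TPM with vehicle and at 28.0, 16.8 and 17.4 TPM with SADBE, a log2 fold change of -1.65 ± 0.43. PSMB9, a subunit of the immunoproteasome that cuts peptides for MHC class I, stood at 72.5, 130 and 102 TPM with vehicle and at 33.5, 41.1 and 29.7 TPM with SADBE, a log2 fold change of -1.56 ± 0.42.

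Other interferon genes separated the groups with less margin. NLRC5, the activator of MHC class I genes, stood at 3.65, 5.11 and 2.05 TPM with vehicle and at 1.24, 1.26 and 1.36 TPM with SADBE. GBP2, a GTPase of defence against intracellular microbes, stood at 18.5, 89.3 and 24.0 TPM with vehicle and at 15.4, 10.99 and 9.06 TPM with SADBE. IFIT2, which binds viral RNA, stood at 19.6, 84.8 and 33.3 TPM with vehicle and at 8.53, 16.7 and 15.6 TPM with SADBE. Their log2 fold changes were -1.39 ± 0.45, -1.81 ± 0.58 and -1.66 ± 0.58. RSAD2, which encodes the antiviral enzyme viperin, went the other way, at 12.7, 15.8 and 8.37 TPM with vehicle and 39.9, 17.8 and 18.2 TPM with SADBE.

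Vehicle 2 was the highest library for most of these genes. It held the highest level of 25 of the 37 genes, and vehicle 3 held that of 7. Without vehicle 2, 2 members were lower at an unadjusted p under 0.05 and the median was -0.87. Without SADBE 2 and without SADBE 3 there were 8 and 6 lower, and without vehicle 1 there were 19, with a median of -1.36. Over all genes these fits, in that order, had 205 of 18379, 246 of 19068, 303 of 18956 and 334 of 18229 lower. ISG15, a ubiquitin-like modifier, shows the split within the vehicle group, at 36.8, 339 and 479 TPM with vehicle and at 43.2, 99.4 and 94.7 TPM with SADBE. IDO1, the interferon-induced enzyme that starts tryptophan breakdown ahead of KMO, stood at 4.25, 53.3 and 28.5 TPM with vehicle and at 3.45, 8.23 and 3.00 TPM with SADBE. Vehicle 1 lay below all 3 SADBE libraries for ISG15 and within their range for IDO1. MX1, an antiviral GTPase, was highest in SADBE 1 at 680 TPM, and STAT2 followed the library split of the first principal component, at 33.5, 54.5 and 588 TPM with vehicle and 62.5, 424 and 361 TPM with SADBE.

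**Figure D5:**
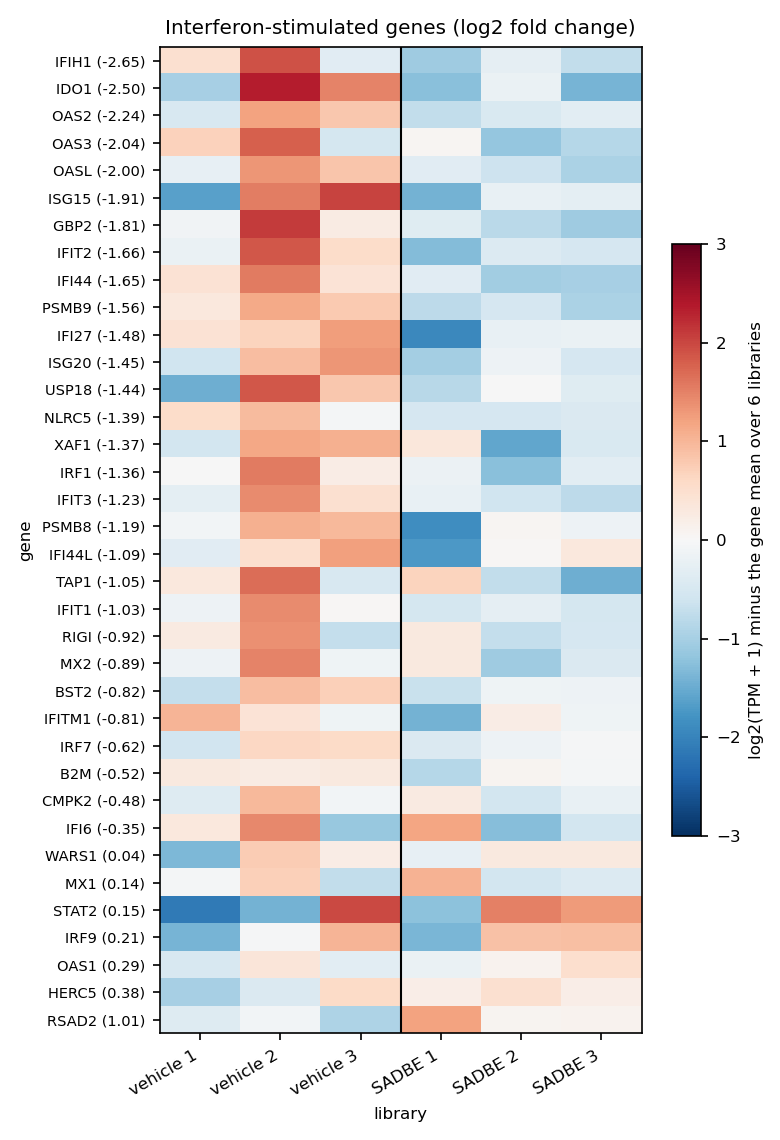
Heat map of 36 of the 37 interferon-stimulated genes (rows, with log2 fold change in parentheses) over the 6 libraries (columns), coloured by log2(TPM + 1) minus the gene mean. Vehicle 2 is the highest library for 25 of the 37 genes, and the upper rows are low in SADBE 1 to 3; STAT2 and IRF9 are high in vehicle 3, SADBE 2 and SADBE 3.

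Chemokines that interferon induces were low with SADBE and uneven with vehicle. CXCL11, a ligand of CXCR3 that draws T cells, stood at 0.956, 19.7 and 9.11 TPM with vehicle, on 28, 377 and 106 estimated counts, and at 0, 0 and 0.126 TPM with SADBE, on 0, 0 and 2 counts. CXCL10, a second CXCR3 ligand, stood at 12.95, 550.2 and 699.7 TPM with vehicle and at 0, 26.2 and 20.8 TPM with SADBE, so that vehicle 1 lay between the SADBE libraries. CCR7, the receptor that guides dendritic cells and T cells to lymph nodes, stood at 0.364, 3.93 and 0.794 TPM with vehicle and at 0.125, 0 and 0.0831 TPM with SADBE. These were the 3 of 23 chemokine and receptor genes at an unadjusted p under 0.05, beside 1.62% lower over all genes tested. The list's median log2 fold change was -0.81, with 21 members below 0. CCL2, which draws monocytes, overlapped, at 283, 645 and 790 TPM with vehicle and 169, 676 and 669 TPM with SADBE.

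The summed level of antigen presentation genes was highest in vehicle 2 as well. The summed level of 9 dendritic cell and MHC class II genes was 1933, 6020 and 2484 TPM with vehicle and 1043, 2074 and 1822 TPM with SADBE, and all 9 had log2 fold changes below 0. CD74, the MHC class II chaperone, made up most of it, at 1895, 5974 and 2461 TPM with vehicle and 1026, 2045 and 1797 TPM with SADBE. T and NK lymphocyte genes summed to 76.6 to 141 TPM with vehicle and 63.5 to 84.0 TPM with SADBE. The part of these cells in the interferon result was not tested.

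Acute-phase and inflammation genes held 5 of 18 members at an unadjusted p under 0.05, all lower, with a median of -0.78. Over all genes tested, 1.62% were lower at that p and 3.99% lay entirely lower. Without vehicle 2 there were 2 lower, and without SADBE 1 or without SADBE 3 there were 3. Over all genes these fits, in that order, had 205 of 18379, 640 of 18390 and 303 of 18956 lower. The 5 lower with no library left out were SOD2, SERPINA3, TNFAIP3, PTX3 and CD14. SERPINA3, an acute-phase protease inhibitor, stood at 11.7, 469 and 192 TPM with vehicle and at 18.7, 22.2 and 8.95 TPM with SADBE, so that vehicle 1 lay among the SADBE libraries. TNFAIP3, a feedback inhibitor of NF-kB, stood at 3.83, 5.62 and 1.71 TPM with vehicle and at 1.83, 1.04 and 0.578 TPM with SADBE. PTX3, a secreted pattern recognition protein, stood at 2.49, 1.45 and 0.523 TPM with vehicle and at 0.191, 0.384 and 0.335 TPM with SADBE. Of the 5, SOD2 and PTX3 had groups that did not overlap. CHI3L1, a chitinase-like protein of activated macrophages, was the third member of the list lying entirely lower with SADBE, at 13.8 to 21.6 TPM with vehicle and 6.25 to 9.82 TPM with SADBE, with an unadjusted p of 0.0538. IER3, an immediate early gene of stress responses, lay entirely higher, at 3.33, 4.03 and 3.46 TPM with vehicle and 9.58, 7.82 and 5.87 TPM with SADBE.

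Macrophage genes were mostly below 0 (20 of 23, median -0.57), with 3 lower and 1 higher at an unadjusted p under 0.05. The shares over all genes tested were 1.62% lower and 1.43% higher. Leaving out a library gave 0 lower (without SADBE 1) to 4 lower (without vehicle 3), and without vehicle 1 the median was -0.27. Over all genes, 640 of 18390 were lower at that p without SADBE 1 and 755 of 19147 without vehicle 3. The complement gene C1QA, a defining macrophage marker, was even, at 135, 160 and 129 TPM with vehicle and 134, 136 and 127 TPM with SADBE. TREM2, a lipid receptor of tissue macrophages, stood at 17.1, 10.2 and 9.90 TPM with vehicle and at 30.9, 33.0 and 33.9 TPM with SADBE, a log2 fold change of 1.17 ± 0.40 with an unadjusted p of 0.0182. The inhibitory Fc receptor FCGR2B stood at 47.5, 10.4 and 6.81 TPM with vehicle and at 3.25, 6.70 and 6.00 TPM with SADBE, and the scavenger receptor CD163 at 15.2, 15.01 and 6.195 TPM against 5.19, 6.22 and 5.68 TPM. TREM2 thus stood opposite in direction to most of the list, and its SADBE libraries were nearly equal.

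Blood and marrow genes had negative medians that moved with vehicle 1. The 14 neutrophil and marrow genes had a median log2 fold change of -1.75 and the 7 erythroid genes one of -3.04. They held 1 and 0 members lower at an unadjusted p under 0.05, beside 1.62% of all genes tested. Without vehicle 1 the medians were -0.10 and 0.78, so the erythroid list turned its direction. Without vehicle 2, 4 neutrophil and 3 erythroid genes were lower at that level, beside 205 of all 18379 genes tested in that fit. S100A8, a calprotectin subunit of neutrophils and monocytes, stood at 716, 46.2 and 57.0 TPM with vehicle and at 3.94, 55.0 and 103 TPM with SADBE. FCN1, the monocyte lectin M-ficolin, was the exception, at 53.1, 31.7 and 25.5 TPM with vehicle and at 0.145, 2.80 and 6.09 TPM with SADBE, a log2 fold change of -3.59 ± 1.02.

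Glial, stromal and barrier genes overlapped for the most part. Of 16 satellite glia genes and 26 fibroblast and matrix genes, 0 had an unadjusted p under 0.05 in edgeR. The share over all genes tested was 3.06%, and the lists' medians were -0.14 and -0.36. The satellite glia median ran from -0.62 (without SADBE 1) to 0.11 (without vehicle 2). The fibroblast median turned to 0.43 without vehicle 1 and to 0.15 without SADBE 1, and 7 fibroblast and matrix genes were lower at that level without vehicle 3. Over all genes, 755 of 19147 were lower at that level without vehicle 3. Of 20 Schwann cell and myelin genes 1 was lower at that level, DRP2, which links the Schwann cell to its basal lamina. The list's median of 0.11 turned to -0.50 without SADBE 1, where 4 were lower, beside 640 of all 18390 genes tested in that fit. DRP2 stood at 5.60, 15.9 and 4.76 TPM with vehicle and at 5.33, 1.70 and 1.41 TPM with SADBE. Of 12 perineurial and meningeal genes 2 were lower at that level, beside 1.62% of all genes tested. The list's median of -0.91 was -0.17 without vehicle 1. CLDN1, the tight junction claudin of the perineurium, stood at 29.2, 13.4 and 1.71 TPM with vehicle and at 1.77, 0.854 and 1.31 TPM with SADBE, and SLC2A1, the glucose transporter GLUT1, at 40.0, 31.4 and 9.51 TPM against 13.3, 4.63 and 6.72 TPM.

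DESeq2 called 28 genes, 20 of them with an official symbol. Of those not yet described, LIPJ, a lipase family member, stood at 0.152, 16.9 and 34.5 TPM with vehicle and at 0.648, 0.762 and 0.569 TPM with SADBE, so that vehicle 1 lay below each SADBE library. SMIM13, a small membrane protein, stood at 5.54, 3.41 and 2.27 TPM with vehicle and at 5.12, 59.1 and 59.99 TPM with SADBE, so that SADBE 1 lay within the vehicle range. GJA5, the arterial gap junction protein connexin 40, stood at 3.85, 1.23 and 5.28 TPM with vehicle and at 0.143, 0.624 and 0.255 TPM with SADBE, without overlap. THBS4, a matrix thrombospondin, stood at 38.4, 11.4 and 1.82 TPM with vehicle and at 0.149, 1.04 and 1.83 TPM with SADBE. The DESeq2 calls thus include genes in which 1 library of a group lay with the other group.

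Among the genes that varied most between libraries were CXCL10, already described, and others that split the libraries in other ways. EMX2, a homeobox transcription factor, stood at 0.464, 0.284 and 97.5 TPM with vehicle and at 0.565, 143 and 32.6 TPM with SADBE. SNURF stood at 5.61, 35.4 and 594 TPM with vehicle and at 5.14, 327 and 342 TPM with SADBE. Both split the libraries as the first principal component did. AKR7L, an aldo-keto reductase family member, stood at 0.296, 44.8 and 81.6 TPM with vehicle and at 0, 6.57 and 0.762 TPM with SADBE, with an unadjusted p of 0.0549. SERPIND1, a thrombin inhibitor, was high in SADBE 3 alone, at 71.0 TPM against 0 to 7.86 TPM. HOX genes, whose expression in adult tissue reflects position along the body axis, also differed within groups. HOXA9 stood at 21.6, 15.9 and 1.71 TPM with vehicle and at 21.9, 0.895 and 5.13 TPM with SADBE, and HOXC10 at 8.85, 0.734 and 0.376 TPM against 0.870, 0 and 0.826 TPM. Of 27 HOX genes tested, 0 had an unadjusted p under 0.05 in edgeR, beside 3.06% of all genes tested. The list's median was -0.12. It was -0.50 without SADBE 1 and 0.16 without vehicle 1. The labels give no ganglion level, so its part in the treatment differences was not tested.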

How the data were processed

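Bulk RNA sequencing of 6 monkey dorsal root ganglion libraries was analysed. The authors deposited estimated counts and TPM (transcript shares scaled for length) per gene. kallisto is named in the submitters' processing notes, and the only build named there is GRCm38, of mouse. Version and monkey transcriptome are not given in the sources used here. Strand use is not stated, so reads of overlapping or antisense genes cannot be told apart, and values of near-identical copies are uncertain. Estimated counts were rounded to whole numbers. Of 35194 genes, 17988 passed filterByExpr (minimum count 10, minimum total 15). They were tested with edgeR 4.0.16 (R 4.3.3; TMM scaling, robust quasi-likelihood fit of 3 SADBE against 3 vehicle libraries, Benjamini-Hochberg adjusted p under 0.05), and the fit was tested on simulated data. Alternatives used DESeq2 1.42.0, limma 3.58.1 and sva 3.50.0. Exact permutation tests used numpy 2.4.6 on log2(TPM + 1). "Official symbol" means a name other than a LOC, ENSM or open reading frame name.

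The labels do not say that libraries came from separate animals, so p-values measure the spread between these libraries, which may be technical. Same-numbered libraries had deviation correlations of 0.21, -0.31 and 0.23, so the numbers were not taken to pair the libraries. Between libraries of unlike number they ran from -0.45 (vehicle 3 with SADBE 1) to 0.42 (vehicle 2 with SADBE 1) and 0.43 (vehicle 3 with SADBE 2). A pairing other than by number was not tested. Members and gene lists were chosen with earlier results of these data known. Genes were named by rule: all tested natriuretic and NP3 genes, the 12 lowest unadjusted p in each direction among official symbols whose groups do not overlap and average 1 TPM or more where higher, up to 4 members of lowest p per list, and the 12 most variable genes. Which cell type markers to print (ADIPOQ, FABP4, PLIN1, C1QA and SNAP25) was chosen after their values were seen, as were the other DESeq2 calls named, ATF3, CALCB, CCL2, CHI3L1, GAP43, HOXA9, HRH1, IDO1, IFIT2, IER3, IL13RA1, IL13RA2, IL4R, IRF9, ISG15, the 2 LOC genes, MRGPRD, MRGPRX1, MX1, RSAD2, SOCS3, STAT2, STAT3 and TAC1, and genes under the filter. Lists of mitochondrially encoded and sex-linked genes were not analysed here. Some genes these rules select are not reported here.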

Additional observations from a re-analysis of the deposited data

How the results depend on the processing

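In edgeR, 0 genes were called in either direction with RLE size factors, no filter, a stricter filter, the replicate block, SADBE 2 and SADBE 3 summed, and each library left out, and with 2 alternatives chosen after seeing the data, 1 surrogate variable and removal of each library's length trend. limma-voom and limma on log2 TPM also called 0. DESeq2 called 8 higher and 20 lower, with 397 and 498 at an unadjusted p under 0.05. limma-voom with quality weights called 2 higher and 1 lower, with 1931 and 2105. At an unadjusted p under 0.05 there were 430 higher and 585 lower without the filter, 146 higher with SADBE 2 and SADBE 3 summed, 404 higher with limma on unfiltered log2(TPM + 1) and 615 higher with the surrogate variable. Leaving out a library gave 140 (without SADBE 2) to 868 (without vehicle 3) higher and 205 (without vehicle 2) to 755 (without vehicle 3) lower. The higher count moved by over 1.5 times also without vehicle 2 (143), SADBE 1 (410) and SADBE 3 (158), and the lower count without SADBE 1 (640). The replicate block gave 279 higher and 278 lower, and for NPPB a log2 fold change of 1.92 (unadjusted p = 0.0549 in edgeR). NPPB was higher in all 19 alternatives, from 1.30 to 2.27, with adjusted p from 0.125 to 1.0. No gene named here that a fit called turned its direction under another, while 37 named genes called by none did under at least 1 alternative. The erythroid and neutrophil list medians were 2.06 and 1.04 with quality weights. The causes were not tested. NPPB rests on 7 to 35 estimated counts a library, which limits its precision.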
